A study of Mus musculus with 3 samples.

Results

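Tenocytes carrying at least 4 UMIs (unique molecular identifiers, each one captured transcript) of Kera, Ucma, Adig and Col11a2 together, and few UMIs of the genes that mark other tenocyte states, were examined in flexor digitorum longus (FDL) tendons of mice. There were 1441 such cells among 8571 tenocytes and 19709 cells kept after quality filters. They comprised 1149 of 5055 tenocytes in 6 M WT (22.7%, exact binomial 95% interval 21.6 to 23.9), 191 of 2579 in 6 M DTR (7.41%, 6.42 to 8.49), as well as 101 of 937 in 21 M B6 (10.8%, 8.87 to 12.9). They are called members here, and the remaining 3906, 2388 and 836 tenocytes are called the other tenocytes. Tenocytes were kept barcodes with at least 10 UMIs of Tnmd, Fmod, Kera and Cilp2, more than their UMIs of epitenon genes, at most 2 of Tyrobp and Fcer1g, and none of Pecam1 or Cdh5. Members also carried at most 1 UMI of Slurp1, Serpinb7, Vcan, Egln3 and Sema3e, at most 2 of Igfbp3, Scn7a, Hmcn1 and Smoc2, and at most 4 of Slpi, Cxcl3, Csf2 and Il4i1. The cells were thus selected on measured values, so the levels of these genes describe the selection and are no result. Because the genes of the rule themselves differed between libraries, the shares of members are not compared between them. The limit on Slurp1 and the genes listed with it is called the Slurp1 limit, and that on Igfbp3 likewise. Among the other tenocytes, 2213 of 3906 exceeded the Slurp1 limit in 6 M WT. In 6 M DTR 794 of 2388 did, and 216 of 836 in 21 M B6. The Igfbp3 limit was exceeded by 84, 281 and 62 in that order. Ratios to other tenocytes thus rest on an unequal mix of cells in each library, and its part in them was not tested.

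The 3 libraries were made with 10x Chromium 3′ v3 chemistry, 1 per group, each from 16 pooled FDL tendons of mice of both sexes. The 6 M DTR mice carried a Cre driven by the Scleraxis promoter and 1 copy of a Cre-dependent diphtheria toxin receptor (Scx-Cre+; DTR F/+), so that toxin kills cells of the Scleraxis lineage, and the 6 M WT mice were littermates with the receptor allele and no Cre (Scx-Cre-; DTR F/+). Both received 5 daily injections of diphtheria toxin into the hind paw at 3 months of age. Harvest was at 6 months of age by the group names used here, whereas 3 months stands in the labels. The 21 M B6 mice were C57BL/6J aged 21 months, with neither transgene nor toxin. Tendons of 6 M WT were digested in collagenase for 2 h and the others for 1.5 h. Digestion time and genotype, and for 21 M B6 also age and toxin, cannot be told apart in a comparison with 6 M WT. With 1 pooled library a group there was no replicate check and no test. Levels are CPM, a gene's UMIs summed over a set of cells and scaled to a fixed total of 1e6, ratios carry exact 95% intervals, and all intervals cover counting error only. UMIs mark the 3′ end of a transcript and were not scaled by transcript length.

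Tenocytes are the fibroblasts that build and keep the aligned collagen matrix of tendon. Most of its collagen is type I, assembled from the chains encoded by Col1a1 and Col1a2, and the minor fibrillar collagens V and XI start fibrils and limit their width, as do the small leucine-rich proteoglycans bound along the fibril. Kera encodes keratocan, a proteoglycan of that family best known from the cornea, Ucma encodes a secreted Gla-rich protein of cartilage, Adig encodes adipogenin, a small membrane protein known from adipocytes, and Col11a2 encodes a chain of collagen XI.

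The bases before the start of each of the 4 genes are shown because these genes define the cells and Scleraxis, the lineage factor behind the ablation, is a basic helix-loop-helix protein that binds E-boxes. Each run holds the 250 bases upstream of the gene start in RefSeq (GRCm38.p6), 5′ to 3′ on the plus strand, and capitals mark CANNTG, the E-box core, which reads the same on both strands. All 4 genes were found in the promoter collection. The windows were chr10:97606955-97607204 for Kera, chr2:4975872-4976121 for Ucma, chr2:158502362-158502611 for Adig and chr17:34038888-34039137 for Col11a2.
Kera: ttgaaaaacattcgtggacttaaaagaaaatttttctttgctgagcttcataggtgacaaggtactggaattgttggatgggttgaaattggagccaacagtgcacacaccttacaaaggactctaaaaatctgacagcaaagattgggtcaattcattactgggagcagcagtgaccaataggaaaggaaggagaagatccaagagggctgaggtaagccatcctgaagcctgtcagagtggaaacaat
Ucma: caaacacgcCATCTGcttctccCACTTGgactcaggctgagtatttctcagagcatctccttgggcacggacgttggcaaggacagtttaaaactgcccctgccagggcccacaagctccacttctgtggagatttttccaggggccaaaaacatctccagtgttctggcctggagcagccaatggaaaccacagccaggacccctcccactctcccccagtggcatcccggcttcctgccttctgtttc
Adig: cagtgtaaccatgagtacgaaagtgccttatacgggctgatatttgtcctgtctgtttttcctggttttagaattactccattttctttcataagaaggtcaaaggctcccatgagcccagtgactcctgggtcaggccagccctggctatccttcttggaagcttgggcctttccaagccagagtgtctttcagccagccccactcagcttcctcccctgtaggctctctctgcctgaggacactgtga
Col11a2: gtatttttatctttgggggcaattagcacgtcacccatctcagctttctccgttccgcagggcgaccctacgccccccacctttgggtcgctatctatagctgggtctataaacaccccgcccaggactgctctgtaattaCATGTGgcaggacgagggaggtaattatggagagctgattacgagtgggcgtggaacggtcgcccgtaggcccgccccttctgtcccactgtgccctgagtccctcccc
The motif stood 2 times in the Ucma window and 1 time in the Col11a2 window, and no match was found in those of Kera and Adig. It was present in 66.2% of 32851 mouse promoter windows of the same length. A match is a description of the sequence and not a binding site.

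The members were sequenced to a depth close to that of the other tenocytes. Where 3 values stand together without group names, they follow the order 6 M WT first, 6 M DTR next and 21 M B6 last. Median UMIs per member were 13402 in 6 M WT, 13310 in 6 M DTR, with 12182 in 21 M B6, against 12957, 12549 and 11304.5 in the other tenocytes. The summed UMIs of members were 15821177, 2737390 and 1292327, so 21 M B6 gave the fewest counts. Mitochondrial transcripts made up a median of 5.63% of the UMIs of a 21 M B6 member, against 2.94% in 6 M WT and 2.88% in 6 M DTR. No barcode was shared between libraries among the members, although 2 or 3 were shared by each pair of libraries among all tenocytes.

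The 4 defining genes were not spread evenly over the members, nor in the same proportions in each library. Adig gave 47.3% of the defining UMIs in 6 M WT, followed by Ucma with 26.9%, Col11a2 with 15.5% and Kera with 10.3%. In 6 M DTR Kera gave 52.0%, Adig 24.3%, Ucma 16.8% and Col11a2 6.96%. In 21 M B6 the order was Kera with 35.8%, Ucma with 31.3%, Adig with 25.6% and Col11a2 with 7.30%. The leading gene was thus Adig in 6 M WT and Kera in the other libraries. In all, 38 members of 6 M WT, 2 of 6 M DTR and 1 of 21 M B6 held UMIs of all 4 genes, and 250, 90 and 41 held 1 of them alone. Among all tenocytes, Adig was found in 68.1% of cells with Ucma and 31.7% of cells without it in 6 M WT, in 27.7% and 8.47% in 6 M DTR, with 36.9% and 12% in 21 M B6. Kera and Ucma, the pair that names the cells, shared few cells outside 6 M WT. Ucma was found in 22.4% of tenocytes with Kera and 17.8% of those without it in 6 M WT, in 9.89% and 7.27% in 6 M DTR, with 4.30% (4 of 93 cells) and 11.7% in 21 M B6. After thinning each cell to 4000 UMIs, Kera was seen in 13.2%, 47.6% and 30.7% of members, and in macrophage-like cells, which should lack it, in 0 of 520 (up to 0.577%), 0.0943% and 0 of 465 (up to 0.645%). Ucma was seen in 32.1%, 19.4% and 33.7% of members and in 0.192%, 0 of 1060 (up to 0.283%) and 0.215% of macrophage-like cells.

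The limit of 4 UMIs cut through a gradient. In 6 M WT there were 182 members with exactly 4 UMIs and 215 tenocytes just outside with 3, and the corresponding numbers were 41 and 67 in 6 M DTR and 22 and 34 in 21 M B6. Col1a1 stood at 7280 CPM just inside and 7411 CPM just outside in 6 M WT, at 10856 and 9384 CPM in 6 M DTR, with 3933 and 3492 CPM in 21 M B6. Coch stood at 17264 and 17697 CPM, 7335 and 8069 CPM, and 9373 and 7842 CPM in the same order. Levels on either side of the limit were thus close in these genes. From tenocytes with none of the 4 genes to members with 10 or more UMIs, Col1a1 went from 3805 to 13171 CPM in 6 M WT and from 5109 to 14666 CPM in 6 M DTR. In 21 M B6 it went from 2125 CPM at 0 UMIs to 3492 CPM at 3 UMIs and stood at 2985, 2467 and 3362 CPM in the bins of 4 to 5, 6 to 9, and 10 or more. Deeper cells hold more UMIs of any gene, and the medians of the end bins were 10780 and 14894 UMIs in 6 M WT, 11174 and 15005 in 6 M DTR, with 10352 and 13706 in 21 M B6.

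**Figure D1:**
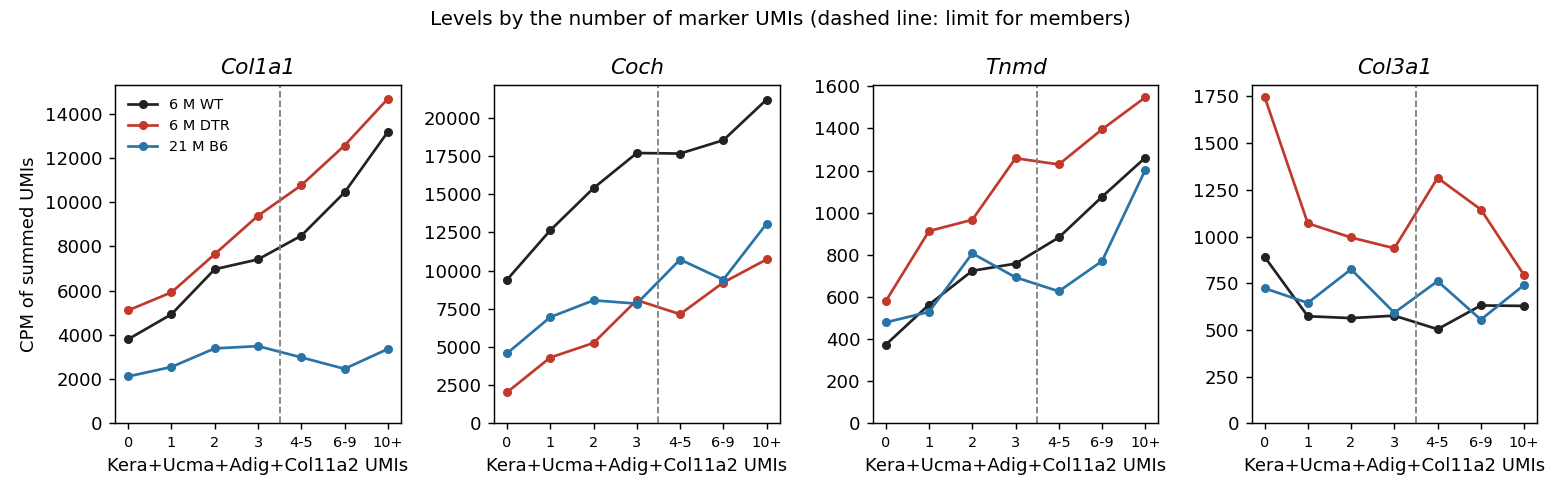
Level (CPM of summed UMIs, from 0) of genes in tenocytes within the upper limits on other states, by their UMIs of Kera, Ucma, Adig and Col11a2, with 1 line a library and a dashed line at the limit for members. Col1a1 climbs to 13171 CPM in the 6 M WT line and 14666 CPM in the 6 M DTR line and stays at or under 3492 CPM in the plotted bins of 21 M B6.

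Type I collagen had the highest ratios of members to other tenocytes among the fibrillar collagens tested, and they were larger in both 6 M libraries than in 21 M B6. Col1a1 stood at 11112 CPM in members and 4795 CPM in other tenocytes of 6 M WT (2.32-fold, 2.30 to 2.33), and at 12454 and 5377 CPM in 6 M DTR (2.32-fold, 2.29 to 2.34). In 21 M B6 it stood at 2926 and 2220 CPM (1.32-fold, 1.27 to 1.36). Col1a2 gave 2.34, 2.36 and 1.46-fold in the same order. The level was not particular to members. A further 323, 42 and 7 tenocytes had at least 4 marker UMIs but exceeded an upper limit, and they count as other tenocytes. They held Col1a1 at 10600, 11048 and 3647 CPM. The summed Col1a1 level of 21 M B6 members was below that of the other tenocytes of 6 M WT, though not in male cells. Cells within a set varied widely. The median 6 M WT member had a Col1a1 level of 7825 CPM of its own UMIs (quartiles 4291 and 14409) and 84.7% of members lay above the median of the other tenocytes, with 82.2% in 6 M DTR and 59.4% in 21 M B6. By sex, called from sex-linked transcripts, Col1a1 in 21 M B6 was 2248 CPM in 62 female members against 1991 CPM in female other tenocytes and 5177 CPM in 19 male members against 2632 CPM. In 6 M WT it was 11284 against 4757 CPM in female cells and 10870 against 4835 CPM in male cells. Female cells made up 76.5% of called members and 48.3% of called other tenocytes in 21 M B6, 75.5% and 70.8% in 6 M WT, and 50.0% and 39.4% in 6 M DTR. The part of sex in the 21 M B6 value was not tested.

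**Figure D2:**
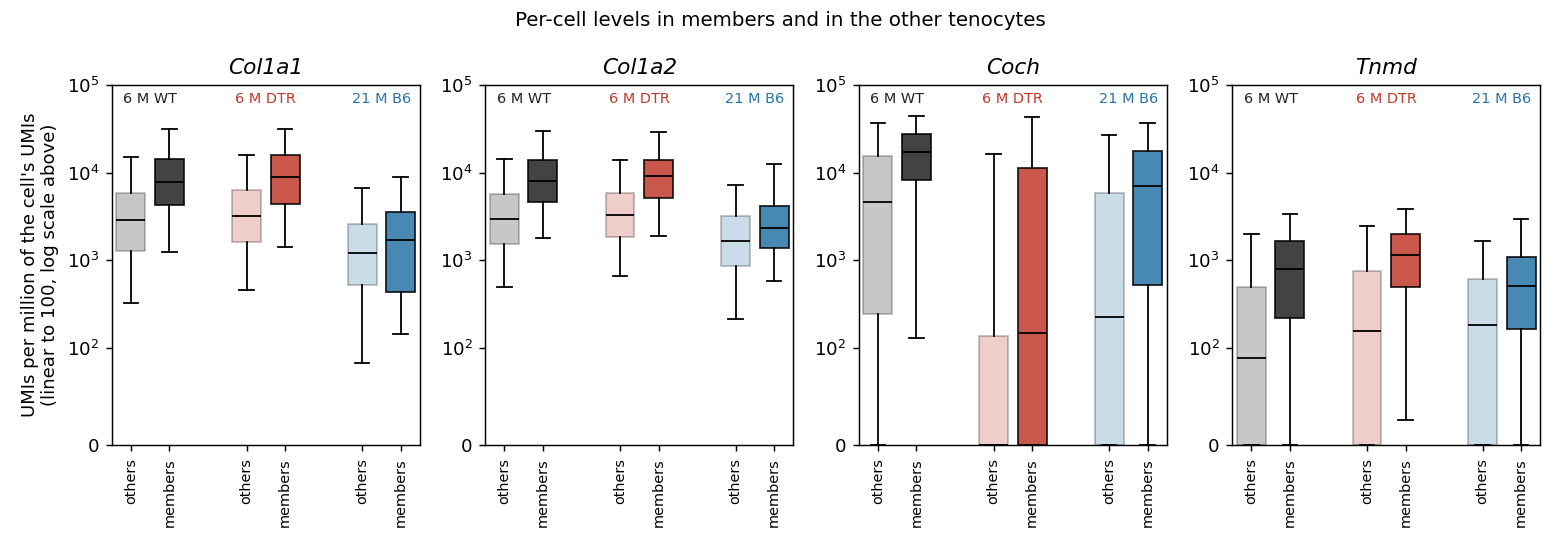
Levels per cell (CPM of the cell's own UMIs, linear to 100 and log scale above) in members and other tenocytes of each library. The median Col1a1 level in members was 7825 in 6 M WT, 8985 in 6 M DTR, with 1695 in 21 M B6, against 2907, 3189 and 1227 in other tenocytes.

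The fibrillar collagens did not move as a block. Of 10 fibrillar collagen genes, 6 reached 50 CPM in members or other tenocytes of each library. Of these, 2 were over 2-fold higher in members in 6 M WT and in 6 M DTR, 0 in 21 M B6, and 0 were over 2-fold lower, beside 0.448%, 0.667% and 0.695% of all genes tested that were over 2-fold higher and 2.35%, 1.96% and 2% that were over 2-fold lower. The list's median log2 ratio was 0.15, 0.26 and 0.23, against -0.14, -0.14 and -0.08 over all genes tested. Summed over the list, members held 23785 CPM in 6 M WT and other tenocytes 11500 CPM (2.07-fold), followed by 26806 and 13685 CPM in 6 M DTR (1.96-fold), with 8174 and 6314 CPM in 21 M B6 (1.29-fold). Col11a1, which encodes another collagen XI chain and was not part of the rule, was higher with type I collagen, at 258 against 148 CPM (1.75-fold, 1.68 to 1.82), 416 against 221 CPM (1.88-fold, 1.76 to 2) and 125 against 98.1 CPM (1.28-fold, 1.08 to 1.51). Col3a1, encoding the type III collagen of thin and healing fibrils, was lower in members, at 598 against 980 CPM (0.610-fold) in 6 M WT, 1113 against 1938 CPM (0.574-fold) in 6 M DTR, with 688 against 772 CPM (0.891-fold, 0.830 to 0.955) in 21 M B6, where male cells alone gave 2.13-fold. Col5a1, which encodes a chain of collagen V, was lower too, with ratios of 0.651, 0.555 and 0.558. These lower ratios depend on which tenocytes are compared. Those just outside, with 3 marker UMIs and within the upper limits, held Col3a1 at 577, 937 and 592 CPM, below the members. They held Col5a1 at 65.6, 91.3 and 47.0 CPM, against 70.9, 95.3 and 44.1 CPM in members. Tenocytes over the Slurp1 limit held Col3a1 at 1123, 2113 and 882 CPM and Col5a1 at 129, 200 and 106 CPM. Among 25 other collagen genes, Col6a3, a chain of the microfibrillar collagen VI, stood at 0.423, 0.617 and 0.801 of its level in other tenocytes.

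Enzymes and chaperones that process collagen lay on both sides of the other tenocytes. Of the 20, 23 and 17 tested genes of this list, 12, 17 and 7 were higher in members and 8, 6 and 10 lower, with 0 past 2-fold in either direction, and the list's medians were 0.17, 0.18 and -0.05 on the log2 scale, beside -0.14, -0.14 and -0.08 over all genes. With 0.448% to 0.695% of all genes over 2-fold higher and 1.96% to 2.35% over 2-fold lower, a count of 0 in a list of this size does not set it apart. P4ha1, a subunit of the prolyl hydroxylase that stabilises the collagen helix, gave ratios of 1.54, 1.75 and 1.21, and Fkbp9, a prolyl isomerase of the endoplasmic reticulum, gave 1.60, 1.48 and 1.41. Lox, the lysyl oxidase that starts crosslinks, gave 1.33, 1.46 and 1.66. Serpinh1, the collagen chaperone HSP47, gave 1.37, 1.24 and 0.966. Pcolce2, an enhancer of procollagen C-proteinase, was lower in members of each library, at 0.595, 0.840 and 0.789.

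**Figure D3:**
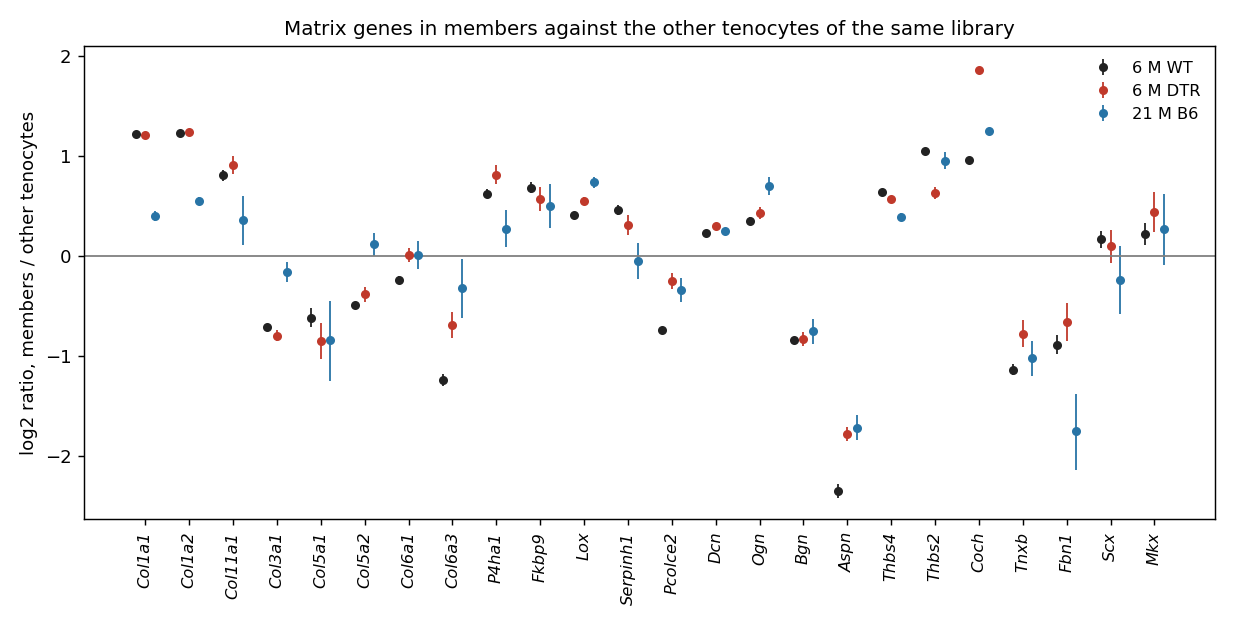
Log2 ratio of the level in members to that in other tenocytes of the same library for matrix genes, with exact 95% counting intervals as bars. Col1a1 and Col1a2 lie at ratios of 2.32 and 2.34 in 6 M WT and 1.32 and 1.46 in 21 M B6, while Aspn lies at 0.196, 0.291 and 0.303.

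Proteoglycans lay on both sides of the other tenocytes. Dcn, encoding decorin, the most abundant of them, was near level at 1.17, 1.23 and 1.19-fold, and Ogn, encoding osteoglycin, gave 1.27, 1.34 and 1.62-fold. Omd, encoding osteomodulin, gave 2.07-fold in 6 M WT (1.93 to 2.21), 1.32-fold in 6 M DTR (1.12 to 1.54), with 2.92-fold in 21 M B6 (2.21 to 3.82). In members led by Kera, with more UMIs of it than of Ucma, Adig and Col11a2 together, the direction turned. They held Omd at 11.7, 35.5 and 10.7 CPM, against 42.0, 49.4 and 19.9 CPM in other tenocytes. Bgn, encoding biglycan, was lower at 0.557, 0.561 and 0.592 of the level in other tenocytes. Aspn, encoding asporin, was furthest apart, at 118 against 603 CPM, 566 against 1948 CPM and 425 against 1400 CPM. Of 9 tested proteoglycan genes in each library, 1, 0 and 1 were over 2-fold higher and 1 was over 2-fold lower in each, which was Aspn in all 3. Over all genes tested, 0.448% to 0.695% were over 2-fold higher and 1.96% to 2.35% over 2-fold lower.

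Tendon lineage regulators differed little between members and the other tenocytes. Scx, the transcription factor whose promoter drives the Cre, gave 98.5 against 87.9 CPM in 6 M WT (1.12-fold, 1.06 to 1.19), 120 against 113 CPM in 6 M DTR (1.07-fold, 0.951 to 1.20), with 62.7 against 73.9 CPM in 21 M B6 (0.848-fold, 0.666 to 1.07). Mkx, a homeobox factor of tendon, gave 1.16, 1.35 and 1.21-fold. The interval of Scx spanned 1 in 6 M DTR and 21 M B6, and that of Mkx in 21 M B6 (0.940 to 1.53). Thbs4, encoding the matrix protein thrombospondin-4, gave 1.55, 1.48 and 1.31-fold. Tnmd, which belongs to the tenocyte gate, stood at 1106, 1374 and 843 CPM in members.

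Across 2191 genes tested in all 3 libraries, 334 were higher and 1089 lower in members in each, and 0 were over 2-fold higher and 17 over 2-fold lower in each. Ranked by their smallest ratio over the libraries, the 10 highest genes included Coch, encoding cochlin, at 19454 against 10046 CPM in 6 M WT (1.94-fold), 8856 against 2435 CPM in 6 M DTR (3.64-fold), with 10982 against 4636 CPM in 21 M B6 (2.37-fold). With members defined by at least 4 Kera UMIs alone, the members left out join the other tenocytes, which then number 4939, 2499 and 906. Coch then gave 1.05-fold in 6 M WT (1.04 to 1.07). It then gave 0.265-fold in 6 M DTR and 0.951-fold in 21 M B6. Coch was also found in cells that should lack it. After thinning each cell to 4000 UMIs it was seen in 94.9%, 50.3% and 77.2% of members, 80.2%, 26.9% and 53.5% of other tenocytes and 25.6%, 5.28% and 4.09% of macrophage-like cells. Chrdl1, encoding a bone morphogenetic protein antagonist, gave 1.88, 2.09 and 2.01-fold, and Thbs2, encoding thrombospondin-2, 2.06, 1.55 and 1.94-fold. Hp, encoding haptoglobin, gave 4.35, 1.74 and 4.29-fold. With members defined by Kera alone, against that larger set, Hp gave 0.133, 0.544 and 0.863 and Thbs2 0.971 in 6 M WT. Chrdl1 then gave 1.21-fold in 21 M B6 (0.909 to 1.59), an interval that spans 1. Against the unchanged other tenocytes, members led by Kera held Hp at 10.1, 24.2 and 42.7 CPM against 41.9, 43.9 and 39.2 CPM. Thbs2 in 6 M WT stood at 671 against 607 CPM. Itgbl1, an integrin-beta-like secreted protein, gave 2.08, 1.71 and 1.75-fold, but 1.21-fold in 6 M WT with Kera alone. Rrad, a small GTPase, gave 1.94, 3.23 and 1.61-fold, but in 21 M B6 only 1.06-fold (0.907 to 1.22) in female cells and 1.14-fold (0.984 to 1.33) with Kera left out of the rule. Cfb, complement factor B, gave 1.53, 2.36 and 2.12-fold. Gbp6, Gpm6b and Ncam1 completed the list, with ratios from 1.56 to 1.91. In male cells of 21 M B6, Gbp6 gave 0.927 and Ncam1 0.943, both with intervals that span 1.

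At the other end, the 10 genes with the lowest ratios in all 3 libraries, ranked by their highest ratio, included Ltbp2, Cd55, Tppp3 and Npy. Ltbp2, which encodes a microfibril protein, stood at 3.35 against 54.8 CPM in 6 M WT, 12.1 against 117 CPM in 6 M DTR, with 3.10 against 51.2 CPM in 21 M B6, the last from 4 UMIs in 3 cells. Cd55, a membrane regulator of complement, gave ratios of 0.127, 0.122 and 0.124, and Tppp3, a tubulin polymerisation protein known from tendon sheath and epitenon cells, 0.122, 0.131 and 0.154. Npy, encoding neuropeptide Y, gave 0.0803 in 6 M WT, 0.00690 in 6 M DTR (0.00142 to 0.0202, from 3 UMIs), with 0.188 in 21 M B6, where 33 of 47 UMIs came from 1 cell. Sbsn, Serpine2, Thbd, Cd34, Fhl1 and Aspn completed the list of 10, with ratios from 0.0884 to 0.415. Defined by Kera alone, members of 6 M WT gave 0.766 for Cd34 (0.598 to 0.967), 0.416 for Tppp3 and 0.393 for Aspn. All 10 stayed lower in each library with Kera alone. Serpine2 gave 0.0458 in female and 0.264 in male cells of 6 M WT, and 0.568 in male cells of 21 M B6. Ly6a, an epitenon and progenitor marker and the most abundant of the epitenon list, gave 0.386, 0.652 and 0.385, and the rule limits epitenon genes in all tenocytes alike. The summed epitenon list stood at 373, 531 and 372 CPM in members and 945, 857 and 894 CPM in other tenocytes.

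Among the markers of adipocytes, chondrocytes and osteoblasts, Sox9, a transcription factor of chondrocytes, was the most abundant in members of each library. It was lower there than in other tenocytes. Of 15 adipocyte markers, Adipoq, Cidec and Pparg had 0 UMIs in the members of each library, and the list summed to 78.6, 70.1 and 108 CPM with Bscl2 at 22.1, 27.4 and 10.8 CPM and Lpl at 19.4, 17.9 and 44.1 CPM. Of 12 chondrocyte markers, Acan stood at 3.48, 12.8 and 0 CPM, Hapln1 at 3.41, 15.3 and 2.32 CPM and Col2a1 at 1.01, 1.10 and 0 CPM. Sox9 stood at 108, 95 and 66.5 CPM in members and 129, 151 and 85.3 CPM in other tenocytes. The chondrocyte list summed to 125, 129 and 68.9 CPM in members and 170, 244 and 91.2 CPM in other tenocytes. A 0 in 21 M B6 members allows up to 2.32 CPM. Of 8 osteoblast markers, Ibsp, Sp7, Dmp1 and Mepe had 0 UMIs in each library. Macrophage markers summed to 32.4, 46.4 and 80.5 CPM in members, with Lyz2 on top, and 35.6, 65.5 and 49.1 CPM in other tenocytes. Muscle markers summed to 96.3, 77.8 and 148 CPM in members and 21.8, 90.4 and 132 CPM in other tenocytes. Erythroid markers summed to 1571, 5018 and 27.1 CPM in members and 871, 3507 and 1180 CPM in other tenocytes, with Hbb-bs on top. A single cell gave 2661 of 5390 Hba-a1 UMIs in 6 M WT and 2122 of 3397 in 6 M DTR, and the part of erythroid RNA in the other results was not tested.

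Inflammatory genes differed between libraries in the size and direction of their ratios. The rule limits Slpi, Cxcl3, Csf2 and Il4i1 in members only, and 105, 39 and 3 other tenocytes exceeded that limit. Ratios of inflammatory genes are thus in part shaped by the selection, and how far was not tested. C3, complement component 3, stood at 1.37-fold in members of 6 M WT, 2.22-fold in 6 M DTR, with 3.30-fold in 21 M B6. Cxcl10, an interferon-induced chemokine, gave 2.16, 3.17 and 0.497-fold. Mmp3, encoding stromelysin-1, gave 0.737-fold in 6 M WT, 2.17-fold in 6 M DTR, with 2.38-fold in 21 M B6. In 6 M DTR the members led by Kera held it at 2905 CPM, with 686 of 3356 UMIs from 1 cell. The rest held it at 1170 CPM, with 609 of 1851 UMIs from 1 cell, beside 875 CPM in other tenocytes. In 21 M B6 the 34 members led by Kera, with more UMIs of it than of Ucma, Adig and Col11a2 together, held Mmp3 at 3749 CPM, with 686 of 1756 UMIs from 1 cell, and the other 67 members held it at 755 CPM, beside 774 CPM in the other tenocytes. Of the inflammation list, 2 of 24, 4 of 23 and 4 of 25 tested genes were over 2-fold higher in members and 1, 2 and 1 over 2-fold lower, beside 0.448%, 0.667% and 0.695% higher and 2.35%, 1.96% and 2% lower over all genes. The glycolysis and hypoxia list had 0 genes past 2-fold of 15, 14 and 17 tested, with medians of -0.36, -0.35 and -0.17.

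Members of 6 M DTR were set beside members of 6 M WT to show how these cells differed after ablation of Scleraxis-lineage cells. In all, 59 of 2592 genes were over 2-fold higher (2.28%) and 45 over 2-fold lower (1.74%). In the other tenocytes 1.98% were over 2-fold higher and 1.42% over 2-fold lower. Both comparisons use the 6 M WT library. Mmp2, encoding gelatinase A, stood at 702 CPM in 6 M DTR, from 176 of 191 cells, and at 122 CPM in 6 M WT, from 641 of 1149 cells (5.74-fold, 5.39 to 6.12), beside 6.73-fold in other tenocytes. Edil3, encoding an integrin-binding matrix protein, stood at 100 CPM from 95 cells and 1.20 CPM from 12 cells (83.7-fold, 52.6 to 141), beside 35.8-fold in other tenocytes. Mstn, encoding the muscle growth inhibitor myostatin, had 427 UMIs in 48 members of 6 M DTR and 37 UMIs in 13 members of 6 M WT (66.7-fold, 47.6 to 96.0), beside 15.2-fold in other tenocytes. With members defined by at least 4 Kera UMIs alone, Edil3 gave 20.5-fold and Mstn 15.1-fold. Fbln7, encoding fibulin-7, gave 27.9-fold and Tnc, encoding tenascin-C, 5.44-fold, beside 12.6-fold and 5.38-fold in other tenocytes. With Kera alone they gave 9.86-fold and 2.67-fold, and Fbln7 gave 20.9-fold in female and 78.8-fold in male cells. Ptprd, Tac1, Vcam1 and F2r gave 5.19 to 6.65-fold. In female and male cells, Ptprd gave 3.60 and 12.4-fold, Tac1 4.96 and 25.9-fold, Vcam1 2.37 and 5.56-fold and F2r 5.05 and 3.77-fold. These genes were higher in both kinds of tenocyte of 6 M DTR. Members led by Kera were 8.62% of all members in 6 M WT and 43.5% in 6 M DTR. Within them Vcam1 stood at 93.2 CPM in 6 M WT, against 338 CPM in 6 M DTR, and in the rest of the members at 25.7 against 55.6 CPM. With Kera alone defining the members, Tac1 gave 1.06-fold (0.805 to 1.40), an interval that spans 1. Mmp13, encoding collagenase 3, gave 44.3-fold from 245 UMIs in 13 cells, of which 93 came from 1 cell. Without the top cell of each library it gave 80.2-fold, with Kera alone 163-fold, and in female and male cells 19.8 and 466-fold.

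Genes lower in 6 M DTR members included acute-phase genes. Saa3 stood at 15.7 CPM against 576 CPM in 6 M WT (0.0273-fold, 0.0197 to 0.0368), beside 0.223-fold in other tenocytes, and 37 of its 43 UMIs in 6 M DTR came from 1 cell. Lcn2, encoding lipocalin-2, and Saa2 gave 0.186-fold each, with Lcn2 at 0.299-fold and Saa2 at 0.168-fold in other tenocytes. By sex, Lcn2 gave 0.0775-fold in female and 0.256-fold in male cells, and Saa2 0.236 and 0.112-fold. Members defined by Kera alone gave 0.0211-fold for Lcn2 and 0.0679-fold for Saa3. Gbp6, an interferon-induced GTPase, gave 0.215-fold and Tent5a, a poly(A) polymerase, 0.242-fold. Tent5a gave 0.462-fold (0.403 to 0.529) with Kera alone. Gm12248, S100g, Chac1, F3 and Rhou gave 0.126 to 0.252-fold. Kera alone gave 0.00407-fold for S100g and 0.433-fold for Chac1. Male cells gave 0.503-fold for Rhou (0.300 to 0.808), and 0 for Gm12248 with an interval up to 104. Of the inflammation list, 3 of 24 tested genes were over 2-fold higher and 8 over 2-fold lower (2.28% and 1.74% over all genes), with a median of -0.43, beside 0 and 10 of 24 and -0.75 in other tenocytes. Slc7a11, a cystine transporter, gave 0.323-fold. Col1a1 gave 1.12-fold, Col3a1 1.86-fold and Col11a1 1.61-fold, and Col3a1 gave 2.54-fold in female and 1.16-fold in male cells. All 6 fibrillar collagen genes tested were above their 6 M WT level, with 0 past 2-fold and a median of 0.47. Other tenocytes also had all 6 above it, with 0 past 2-fold and a median of 0.49. Col1a2 in members gave 1.07-fold, but 0.950-fold in female cells, its lowest value over the alternatives run. Of the other collagens, all 8 tested in members were above their 6 M WT level, with 2 over 2-fold higher and a median of 0.32. These were Col4a2, a basement membrane chain (2.36-fold), and Col12a1, encoding a fibril-associated collagen (2.19-fold). Among other tenocytes 6 of 9 were above that level, with 2 over 2-fold higher and a median of 0.36.

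Members of 21 M B6 held less type I collagen and more heat shock and immediate early transcripts than members of 6 M WT. In all, 117 of 2523 genes were over 2-fold higher (4.64%) and 59 over 2-fold lower (2.34%), beside 3.87% and 1.75% in other tenocytes, with a median over all genes of -0.17. Mitochondrial transcripts were a median of 5.63% of the UMIs of these members and 2.94% of those of 6 M WT, and with a limit of 5% the summed fibrillar collagens gave 0.458-fold in place of 0.344-fold. The part of RNA quality in the other ratios was not tested. Col1a1 gave 0.263-fold (0.255 to 0.272) and Col1a2 0.338-fold (0.329 to 0.348), against 0.463-fold and 0.541-fold in other tenocytes. By sex, Col1a1 in members gave 0.199-fold in female and 0.476-fold in male cells, and Sparc 0.202 and 0.453-fold. Col1a1 in other tenocytes stood at 1991 CPM in 21 M B6 against 4757 CPM in 6 M WT in female cells. In male cells it stood at 2632 against 4835 CPM, so the gap between members and other tenocytes differed by sex. Sparc, encoding the collagen-binding protein osteonectin, gave 0.267-fold, from 11187 to 2986 CPM, beside 0.447-fold. Of 6 fibrillar collagen genes, 3 were over 2-fold lower, and the collagen processing list had 0 of 20 past 2-fold and a median of -0.48. Ereg, Gstm5 and Prrx2 gave 0.180 to 0.256-fold. Ereg gave 0.0313-fold with Kera alone, and Prrx2 0.451-fold in male cells. The haemoglobin genes gave 0.00454 to 0.0475-fold, and the lowest, Hba-a1, rested on 2 UMIs in 21 M B6 (0.00055 to 0.0164). With members defined by Kera alone Hba-a1 gave 0.323, Hba-a2 1.11, Hbb-bs 1.19 and Hbb-bt 1.29, each with an interval that spans 1, and without the top cell of each library Hbb-bt gave 0.194 in place of 0.0475.

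Hspa1a and Hspa1b, a near-identical pair of inducible HSP70 genes whose reads can be split uncertainly, gave 16.7-fold each. Hspa1a gave 6.67-fold in female cells, 25.5-fold in male cells and 5.01-fold with members defined by Kera alone, and Hspa1b gave 9.63, 18.7 and 4.36-fold in that order. Of the heat shock list, 5 of 13 tested genes were over 2-fold higher (4.64% over all genes), with a median of 0.85, beside 8 of 15 and 1.17 in other tenocytes. The list of endoplasmic reticulum and secretory stress genes had 0 of 18 past 2-fold and 12 of 18 lower, with a median of -0.20. Of the immediate early list, 7 of 21 were over 2-fold higher, with a median of 0.84, beside 6 of 21 and 0.88 in other tenocytes. In 6 M DTR 3 of 20 were, beside 2.28% of all genes, with a median of 0.50, and Fos stood at 1263 CPM in 6 M WT members, 2537 CPM in 6 M DTR members and 3633 CPM in those of 21 M B6. Immediate early genes are known to respond to tissue digestion. The shorter digestion of these libraries cannot be told apart from genotype, nor in 21 M B6 from age and the lack of toxin. Ifi207, an interferon-induced gene, stood at 208 CPM from 23 cells against 3.29 CPM (63.3-fold, 46.9 to 87.0), and Ifi204 of the same family gave 8.79-fold and C4b, a complement gene, 11-fold. Ifi207 gave 33.0-fold with Kera alone and 35.0-fold (10.4 to 151) in male cells, and Ifi204 5.65-fold with Kera alone. C4b gave 5.48-fold in female cells and 25.9-fold in male cells, and had 0 UMIs in 21 M B6 members defined by Kera alone (ratio up to 1.97). Of the 10 genes ranked highest in 21 M B6 members, 5 were still higher with Kera alone. Tac1, encoding the precursor of substance P, gave 8-fold, but 0.214-fold (0.0843 to 0.454) with Kera alone. By sex, Tac1 gave 3.40-fold in female and 93.8-fold in male cells. Some large ratios rested on single cells. All 145 Ctla2a UMIs came from 1 member of 21 M B6, and 1 cell likewise gave 84 of 85 Cxcl9 UMIs, 220 of 351 Tnfaip6 UMIs and 379 of 601 S100g UMIs. Without its top cell in each library, Tnfaip6 gave 2.44-fold in place of 6.04-fold, and with Kera alone it gave 0.810-fold (0.599 to 1.08). S100g gave 0.170-fold in male cells and 0.444-fold with Kera left out of the rule. Gm42418, which overlaps a ribosomal RNA repeat, stood at 52443 CPM in 21 M B6 members against 14781 CPM in 6 M WT (3.55-fold), and its part in the other ratios was not tested.

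**Figure D4:**
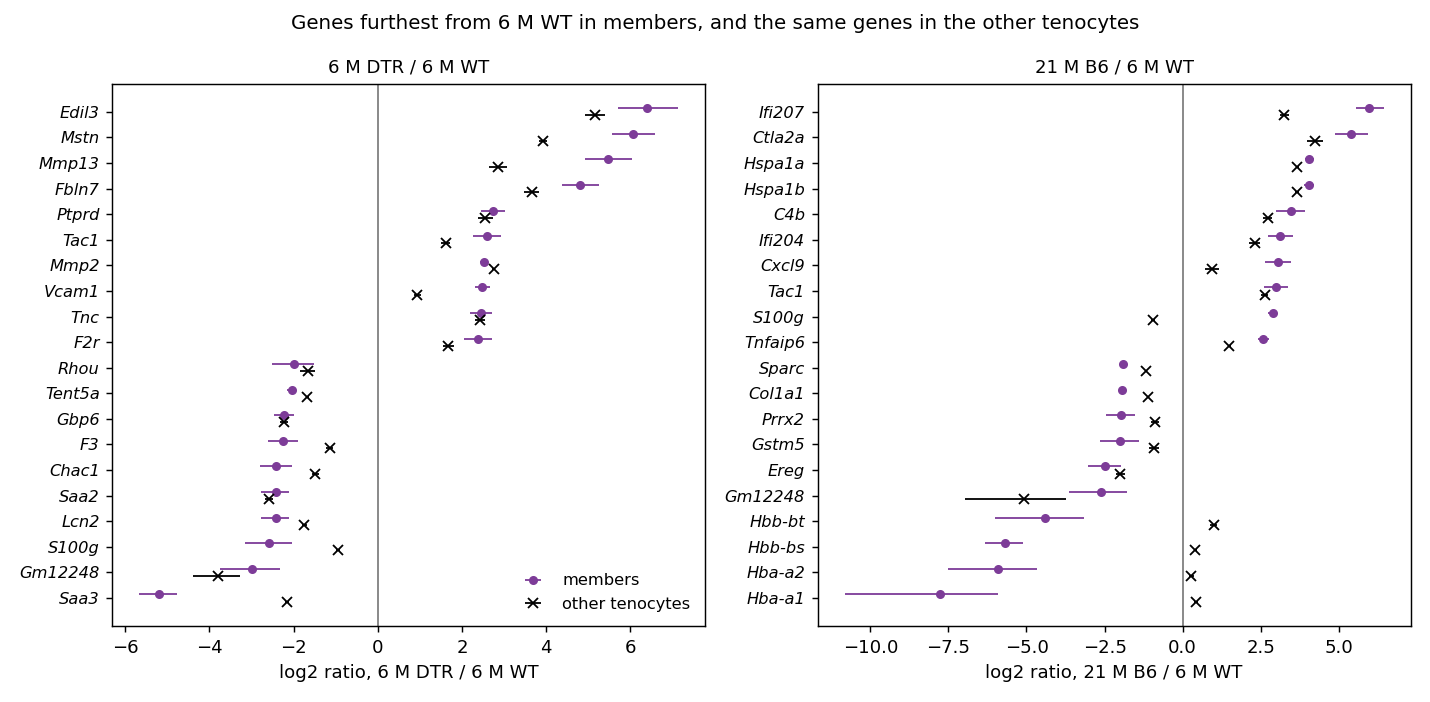
Log2 ratio to 6 M WT of the genes furthest from it in members (circles), with the same genes in other tenocytes (crosses) and exact 95% counting intervals as bars. Edil3 lies at 83.7-fold in members and 35.8-fold in other tenocytes of 6 M DTR, and Hspa1a at 16.7 and 12.8-fold in 21 M B6.

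To see how the defining genes divide the members, cells whose Kera UMIs exceeded their summed Ucma, Adig and Col11a2 UMIs, called Kera-led, were set beside the rest. The split was chosen after the values were seen. It put 99 of 1149 members of 6 M WT (8.62%), 83 of 191 of 6 M DTR (43.5%) and 34 of 101 of 21 M B6 (33.7%) in the Kera-led set. Of all members, 41, 5 and 3 had at least 4 UMIs of Kera and at least 4 of the other 3 genes together. Type I collagen did not separate the sets, with Col1a1 in Kera-led members at 0.999, 1.24 and 1.00 times its level in the others.

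Coch separated the sets in each library. It stood at 10910 against 20211 CPM in 6 M WT, 676 against 14829 CPM in 6 M DTR, with 5368 against 14173 CPM in 21 M B6. In 6 M DTR it was seen in 22 of 83 Kera-led members, with 309 of 781 UMIs from 1 cell, against 90 of 108 other members. These counts were made without thinning, where Coch was also seen in 13.9% of macrophage-like cells of 6 M DTR. The Kera-led level in 6 M DTR was below the 2435 CPM of the tenocytes outside the members. Hp, at 10.1 against 198 CPM, 24.2 against 114 CPM and 42.7 against 239.1 CPM, and Omd, with ratios of 0.125, 0.410 and 0.126, were also lower in Kera-led members. Ramp1, a receptor activity modifying protein, Cd200, Ccn5 and Ccdc80 gave ratios from 0.128 to 0.495. Spp1, encoding osteopontin, gave 0.153, 0.566 and 0.199, and Chad, encoding chondroadherin, 0.457, 0.583 and 0.327.

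Kera-led members held more Lum, encoding lumican, a close relative of keratocan, at 891 against 346 CPM, 1512 against 449 CPM and 615 against 180 CPM. Timp1, an inhibitor of matrix metalloproteinases, gave 3.71, 3.00 and 3.66-fold, with 317 of 866 UMIs in 6 M DTR from 1 cell. Mmp3 gave 2.89, 2.48 and 4.97-fold, with 686 of 1756 UMIs in 21 M B6 from 1 cell. In 6 M DTR 1 cell gave 686 of 3356 UMIs of the Kera-led members and 1 gave 609 of 1851 of the rest. Il6, an inflammatory cytokine, gave 6.05, 3.09 and 2.45-fold, and Vcam1, an adhesion molecule, 3.62, 6.07 and 3.16-fold, with 46 of 61 UMIs in 21 M B6 from 1 cell. Plaur, the urokinase receptor, Aqp1, Palmd, Pdpn and Apod gave ratios from 2.38 to 6.10. Not all of these levels exceeded those of the tenocytes outside the members. Il6 in 21 M B6 stood at 365 CPM in Kera-led members and 454 CPM in those tenocytes. Aqp1 stood at 242, 289 and 194 CPM in Kera-led members and 240, 350 and 216 CPM in those tenocytes. Palmd in 6 M DTR stood at 60.6 and 66.2 CPM. Over all genes tested, 4.32% were over 2-fold higher and 1.77% over 2-fold lower in 6 M WT, 2.40% and 1.07% in 6 M DTR, with 5.33% and 4.04% in 21 M B6. Of 2096 genes tested in each library, 15 were over 2-fold higher and 6 over 2-fold lower in all 3. Female cells made up 83.0%, 52.1% and 90% of called Kera-led members and 74.7%, 48.4% and 68.6% of the others, and the part of sex in these ratios was not tested.

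**Figure D5:**
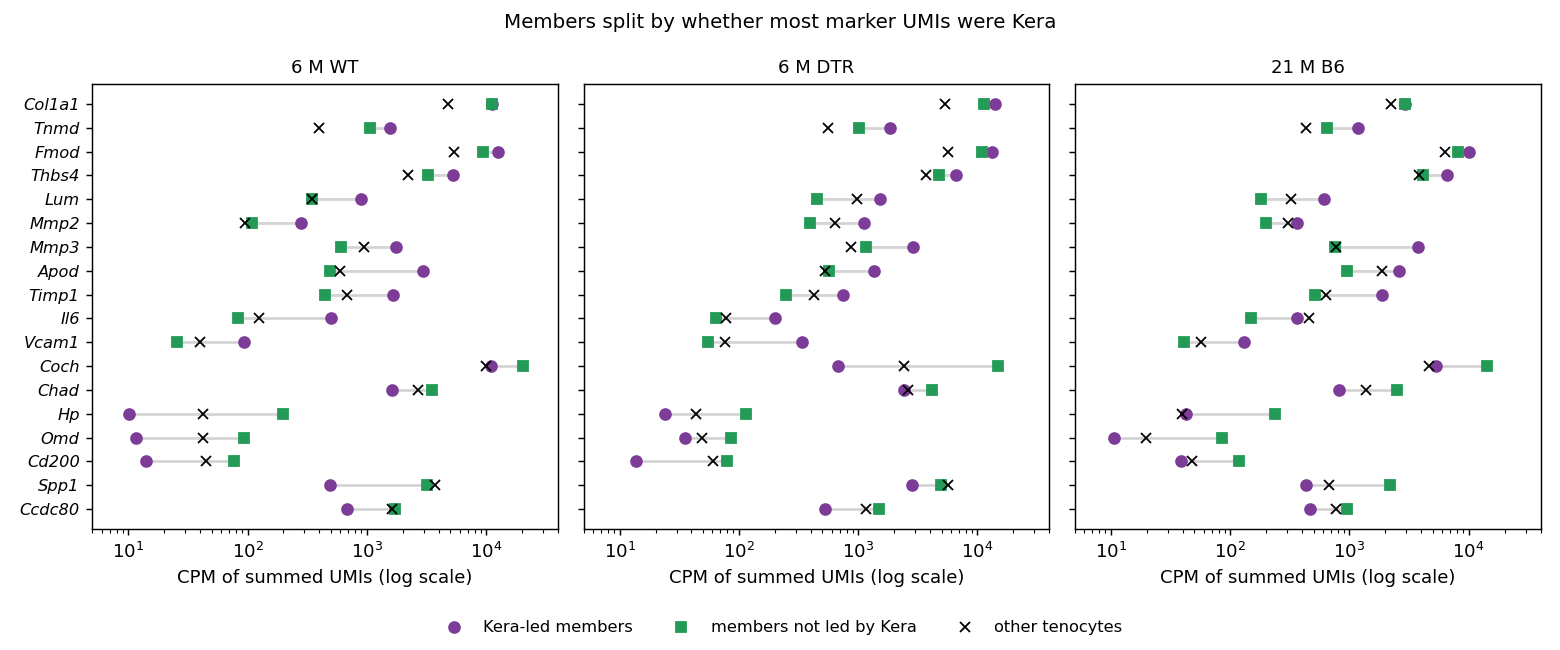
Level (CPM of summed UMIs, log scale) of genes in Kera-led members (circles), the remaining members (squares) and the other tenocytes (crosses) of each library. Coch in 6 M DTR lies at 676 CPM in Kera-led members and 14829 CPM in the rest, while Col1a1 in Kera-led members lies at 0.999 to 1.24 times its level in the rest.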

How the data were processed

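Single-cell RNA-seq of FDL tendon was deposited as 1 matrix a group, and the deposited values are raw UMI counts per gene and barcode, made by the authors with Cell Ranger. The file headers name version 6.0.1 and the submitters' processing notes version 2.1.1. For build and gene annotation the entry is "not given in the sources used here". The deposited matrices held 15536, 16099 and 12273 barcodes and 148149903, 123918145 and 92707026 UMIs for 6 M WT, for 6 M DTR, then for 21 M B6. The authors' rank tests over cells were not used.

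Barcodes with 1000 to 5000 genes and at most 10% mitochondrial UMIs were kept (8357, 6554 and 4798), and the rule was applied with scipy 1.17.1, pandas 2.3.3, numpy 2.4.6 and matplotlib 3.10.9 under Python 3.11.15. The members and the gene lists were chosen with earlier results of these data known. No doublet caller was run; an alternative left out cells with markers of another type and the 5% deepest cells. Counts were summed over cells of a set and divided by the set's total. Ratios carry exact conditional (Clopper-Pearson) 95% intervals, a count of 0 was given the limit of 3 counts, and a gene was tested at 50 CPM or more in either sum, and genes beyond a ratio of 2 were called past 2-fold. Shares of cells were taken after thinning to 4000 UMIs. The steps were tested on simulated data. Cells were called female or male from Xist and Y-linked UMIs. Macrophage-like cells held at least 10 UMIs of macrophage genes.

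Genes named were, outside the rule genes, the 10 with the largest smallest and the 10 with the smallest largest log2 ratio of members to other tenocytes over the 3 libraries (at least 50 CPM in each), the 10 largest and 10 smallest ratios of members of 6 M DTR and of 21 M B6 to 6 M WT, Scx, Mkx, and, within each gene list, those with high levels or the largest and smallest ratios. Other genes, and the split by Kera, were chosen after their values were seen. TMM factors came from edgeR 4.0.16 in R 4.3.3 as an alternative. Promoter sequences were those of RefSeq.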

Additional observations from a re-analysis of the deposited data

Results flagged for a closer look

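Mmp13, Saa3 and S100g were among the genes whose ratios of members to other tenocytes lay on opposite sides of 1 in 6 M DTR and 21 M B6, and the differences between libraries were not tested. Mmp13 gave 3.05 in 6 M DTR, where 93 of 245 UMIs came from 1 of 13 cells, and 0.459 in 21 M B6, where all 7 UMIs came from 1 cell. Saa3 gave 2.51 in 21 M B6, where 401 of 909 UMIs came from 1 of 7 cells and the ratio without the top cells was 1.56, and 0.100 in 6 M DTR, where 37 of 43 UMIs came from 1 cell. S100g gave 2.48 in 21 M B6, where 379 of 601 UMIs came from 1 cell and the ratio without it was 1.03, and 0.0565 in 6 M DTR.

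Barcodes left out because over 10% of their UMIs were mitochondrial also held cells that met the rest of the rule, 8 in 6 M WT, 5 in 6 M DTR, with 17 in 21 M B6. Their median mitochondrial share was 10.8%, 12.6% and 12.9%, and Col1a1 stood at 16943, 27205 and 2384 CPM in them.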

How the results depend on the processing

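The reported ratios of the summed fibrillar collagens of members to other tenocytes were 2.07 in 6 M WT, 1.96 in 6 M DTR, with 1.29 in 21 M B6, and members gave 1.13 for 6 M DTR and 0.344 for 21 M B6 against 6 M WT. No alternative run turned the direction of these sums; the causes of the moves below were not tested. With a mitochondrial limit of 5% they were 2.1 in 6 M WT and 1.5 in 21 M B6, where 36 members remained, and 1.11 and 0.458 against 6 M WT, and Col3a1 in 21 M B6 members reversed to 1.18. At least 8 UMIs of the 4 genes gave 2.20, 2.19 and 1.43, then 1.14 and 0.335, with 114 genes over 2-fold lower in 21 M B6 members and Col3a1 at 1.04. Kera alone gave 1.92, 2.03 and 1.14, then 1.07 and 0.274. It gave 120 genes higher and 107 lower in 6 M DTR, and 128 lower in 21 M B6. Coch then gave 0.265 in 6 M DTR and 0.951 in 21 M B6, against other tenocytes that include the members left out. Against the unchanged other tenocytes, Kera-led members of 21 M B6 held Coch at 5368 against 4636 CPM. Without upper limits the 6 M ratios were 2.35 and 1.99. On cells thinned to 8000 UMIs they were 2.03, 1.77 and 1.19, then 1.02 and 0.306, with Col1a2 at 0.991 for 6 M DTR and Col3a1 at 0.719 for 21 M B6 against 6 M WT, in place of 1.07 and 1.15. Without mixed or very deep cells they were 2.1, 1.89, then 1.06 and 0.331. Female cells gave 2.13, 2.11 and 1.12, then 1.03 and 0.279, with 69 genes lower in 6 M DTR, Col1a2 at 0.950 and Col3a1 at 0.925. Male cells gave 1.98, 1.92 and 1.89, then 1.25 and 0.582, with 177 genes higher and 220 lower in 21 M B6 and Col3a1 in members at 2.13 against other tenocytes. Leaving Kera out of the rule, an alternative chosen after seeing the data, gave 2.05, 1.77 and 1.25, then 1.05 and 0.332, with Col1a2 at 0.995 and Col3a1 at 0.849. TMM scaling gave 2.36, 2.17 and 1.33, then 1.06 and 0.367. Totals without the 20 most abundant genes gave 2.18, 2.05 and 1.34, and 0.353 for 21 M B6. Cells weighted equally gave 1.10 and 0.329 against 6 M WT, and Col3a1 at 0.956. A filter of 20 CPM gave 112 genes higher and 107 lower in 6 M DTR, with 201 and 182 in 21 M B6, and 1 UMI in each sum gave 1860 and 752, and 1426 and 1196, in place of 59 and 45, and 117 and 59. No paired analysis was possible because each group is 1 library. The 21 M B6 values rest on 101 members, and no replicate library shows how far a second pool of tendons would differ.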
